A study of Mus musculus with 12 samples.

Results

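The miR-466 and miR-297 families are 2 of the 4 large microRNA families whose genes lie mostly in an intron of mouse Sfmbt2. Their members were taken by name: every row of the deposited table of raw counts that begins with mmu-miR-466 or mmu-miR-297 and continues with a letter or an arm. This gave 30 rows of the 1549 in the table, 26 of miR-466 and 4 of miR-297. Of the miR-466 rows, 10 are named as 3p arms, 11 as 5p arms and 5 without an arm; of the miR-297 rows, 3 are 5p arms and 1 is a 3p arm.

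Small RNA of mouse cells was sequenced in 12 libraries from 5 groups, all labelled wild type and all collected by sorting. The androgenetic haploid embryonic stem cell (ESC) lines, with 2 libraries of A129-2, 3 of A129-6 and 2 of A129-17, carry a single chromosome set of paternal origin. R1 (2 libraries) is a diploid ESC line, and RS (3 libraries) are round spermatids, the haploid cells formed by meiosis, sorted after Hoechst staining from testes of 129Sv males of unstated age. The protocol given for the haploid lines is a medium with LIF and the kinase inhibitors PD0325901 and CHIR99021, with repeated enrichment of haploid cells. The diploid group was a single line, so a difference from R1 cannot be told apart from a difference from that one line. Replicates are described as independently sorted, with nothing said of separate cultures or animals. The p-values therefore reflect only how far these samples differ, and that may be technical.

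Sfmbt2 encodes a Polycomb-group protein. In mouse it is expressed from the paternal allele in early embryos and extraembryonic tissue, and its intron carries a rodent-specific array of repeated microRNA genes. A microRNA precursor folds into a hairpin whose 5p and 3p arms can each be cut out as a mature microRNA of its own, so one hairpin can give 2 rows. The mature strand pairs with target mRNAs mainly through its seed, bases 2 to 8 from its 5′ end.

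In the GRCm38 annotation (GENCODE M21), 34 precursors of the 2 families were found. Of these, 28 lay within Sfmbt2 (chr2:10370510-10595253, plus strand), all in the intron between exons 10 and 11, from position 10466663 to 10517164, and none overlapped an exon. The other 6 lay elsewhere: Mir466i (chr13:17747473-17747593), Mir466f-4 (chr13:71107089-71107209), Mir466j (chr10:60960723-60960844), Mir466q (chr3:28419943-28420018), Mir466k (chr3:85467377-85467498) and Mir297-1 (chr7:10958437-10958512). By name, 21 of the 30 rows have precursors only inside Sfmbt2. A further 4 rows (miR-466f, miR-466f-3p, miR-466f-5p and miR-297a-5p) have precursors both inside and outside, and 5 rows (miR-466i-3p, miR-466i-5p, miR-466j, miR-466k and miR-466q) only outside. The label "Sfmbt2 intron" therefore does not hold for those 5 rows.

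Mature sequences were matched in RefSeq (GRCm38.p6) for 4 of the 30 rows, all with precursors outside Sfmbt2. They are shown because they display the repeat character of the family and because 3 of them enter the tests that follow; seeds are in capitals.
mmu-miR-466i-3p: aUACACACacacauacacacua
mmu-miR-466j: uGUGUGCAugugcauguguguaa
mmu-miR-466k: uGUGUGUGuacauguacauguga
mmu-miR-466q: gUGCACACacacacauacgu
They lie on the plus strand at chr13:17747552-17747573, chr10:60960802-60960824, chr3:85467396-85467418 and chr3:28419988-28420007. The strand of miR-466i-3p holds 8 AC dinucleotides and no UG, while that of miR-466j holds 8 UG and no AC. miR-466k holds 7 UG, and miR-466q 6 AC. The 4 seeds differ from one another, and no other row with a RefSeq sequence shares one of them. The remaining members had no sequence there, so whether any of them shares a seed was not tested. The miR-466k hairpin shows the same repeat along its length, with the mature strand in capitals.
Mir466k: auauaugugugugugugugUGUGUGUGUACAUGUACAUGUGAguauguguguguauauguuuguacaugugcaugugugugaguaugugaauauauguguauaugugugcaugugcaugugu

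Because members differ by few bases, reads can be shared or assigned to the wrong row, and how reads with several matches were handled was left unstated in the labels. miR-466d-5p and miR-466n-5p had identical counts in all 12 libraries and are treated as 1 unit. miR-466l-5p and miR-466q each held a single count, in A129-2 replicate 1, so the 30 rows form 28 units. In the ESC libraries the count of miR-466a-3p was 0.906 to 0.967 times that of miR-466b-3p, and the count of miR-466f was 1.01 to 1.08 times that of miR-466f-5p. Levels of single members in such pairs are uncertain, and sums over rows can count a read more than once.

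Total counts were 3709786 to 9102467 in the ESC libraries and 155232 to 243714 in RS, and replicates of a group differed by more than counting noise. Of the 30 rows, 25 to 29 were detected per ESC library and 17 or 18 per RS library, where a count of 0 allows up to 12.3 to 19.3 CPM (counts scaled to a common library total). A list of 10 ESC markers, mainly of the miR-290 cluster, made up 48.2% to 64.7% of haploid-line counts, 34.2% to 34.6% in R1 and 0.00698% to 0.451% in RS, and 9 spermatid markers took 26.4% to 35.5% in RS and at most 0.211% in any ESC library. The 8 mesenchymal markers, all counted in every library, took 0.647% to 2.90% in the haploid lines, 1.62% to 1.79% in R1 and 2.79% to 7.03% in RS; 8 blood and endothelial markers, of which 6 to 8 were counted, took 0.00673% to 0.0215%, 0.0522% to 0.0535% and 0.155% to 1.48%. The part of these cells in the differences between groups was not tested. In bulk samples such as these, fewer cells of a type and less RNA per cell cannot be told apart.

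Summed over all 30 rows, the 2 families took a larger share of counts in every haploid library than in R1. Their share was 0.286% and 0.213% (A129-2), 0.342%, 0.308% and 0.230% (A129-6), and 0.245% and 0.179% (A129-17). In R1 it was 0.0585% and 0.0558%, and in RS 0.0899%, 0.134% and 0.0498%. The haploid range did not overlap that of R1 or RS, and R1 lay inside the RS range. As mean CPM of total counts this was 2495 ± 520 (SD, n = 2) for A129-2, 2934 ± 573 (SD, n = 3) for A129-6, 2120 ± 466.3 (SD, n = 2) for A129-17, 571 ± 19.0 (SD, n = 2) for R1 and 912 ± 421 (SD, n = 3) for RS. Nearly all of it was miR-466. miR-297 alone stood at 19.8 to 74.3 CPM in the haploid libraries, 43.0 and 45.1 in R1 and 30.0 to 116 in RS, ranges that overlap.

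**Figure D1:**
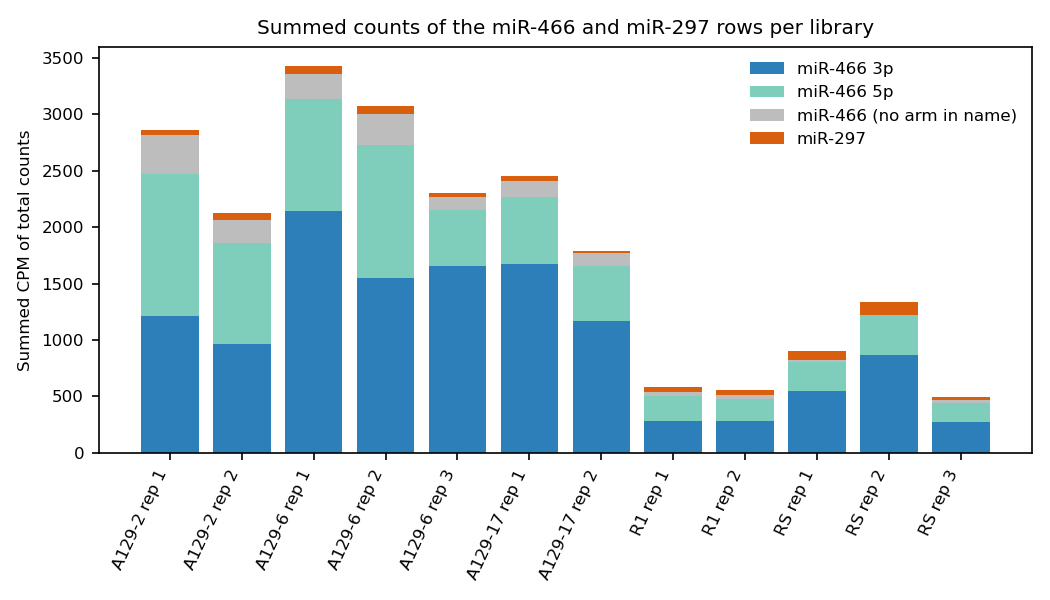
Summed CPM of total counts per library (y axis) for the miR-466 rows by arm and the miR-297 rows, 1 stacked bar for each of the 12 libraries. The 7 haploid bars lie between 1790 and 3424, the R1 bars at 558 and 585, and the RS bars between 498 and 1340.

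In the haploid lines, 19 of the 26 tested members were higher than in R1 and 1 was lower, by edgeR's quasi-likelihood test over the 9 ESC libraries (adjusted p under 0.05). Higher calls were made for 35.3% of all 757 features tested and lower calls also for 35.3%, and 70.5% changed. The 19 rows are 18 units, all of miR-466, where 19 of 23 tested rows were higher. None of the 3 tested miR-297 rows was called. The median difference (log2, haploid lines minus R1) was 1.67 over the tested members and 0.33 over all features tested. In 19 of the 26 members every haploid library lay above both R1 libraries, against 34.7% of all features, and in 2 every haploid library lay below both, against 35.1%. Leaving the miR-290 cluster out of the scaling also gave 19 higher and 1 lower.

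The filter on low counts left out 4 rows: miR-297c-5p (3 counts in all ESC libraries together), miR-466l-3p (10 counts in the haploid lines and 9 in R1), miR-466l-5p and miR-466q (1 count each). Of the tested rows, miR-466n-3p passed that filter only through R1, and miR-466j and miR-466o-3p only through haploid libraries. Of the called rows, only miR-466n-3p was thus admitted by the group in which it was high.

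Among the 3p arms of miR-466, 7 of 9 tested rows were higher in the haploid lines, 1 was lower and 1 was not called. The widest difference of any member was that of miR-466h-3p. Its level, in CPM normalised to TMM-scaled library sizes, was 237 and 209 (A129-2), 435, 270 and 404 (A129-6), 443 and 312 (A129-17), and 14.0 and 12.4 in R1. All 7 haploid libraries thus lay far above R1, with no overlap. The mean was 324 ± 87.2 (SD over 3 line means) in the haploid lines and 13.2 ± 1.16 (n = 2) in R1, a log2 difference of 4.57 (SE 0.35, adjusted p = 1.94e-08). In R1 this arm was a minor one, at 2.5% of the member counts in each library, while in the haploid lines it took 9.4% to 16.0% of them.

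The next widest was miR-466f-3p, whose name matches precursors at the start of the intronic array and a copy on chromosome 13. It stood at 174 and 265 normalised CPM (A129-2), 504, 339 and 517 (A129-6), 554 and 332 (A129-17), and 23.6 and 22.7 in R1. The groups did not overlap, and the 2 lowest haploid values were those of A129-2 and the next lowest that of A129-17 replicate 2. The log2 difference was 3.93 (SE 0.36, adjusted p = 1.47e-07). By name, miR-466i-3p, the AC-repeat strand printed above, has its only precursor on chromosome 13, outside Sfmbt2, and where its reads arose was not tested. It had 56.6 and 65.5 normalised CPM (A129-2), 96.9, 79.8 and 60.5 (A129-6), 82.0 and 52.7 (A129-17), and 6.96 and 6.10 in R1. Again no haploid library reached down to R1, and the log2 difference was 3.40 (SE 0.38, adjusted p = 1.2e-06). With an offset for GC content it was 5.94.

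miR-466b-3p and miR-466a-3p, the most abundant rows in R1 and RS, differed less between the groups. miR-466b-3p had 174 and 207 normalised CPM (A129-2), 375, 259 and 620 (A129-6), 493 and 243 (A129-17), and 99.0 and 93.2 in R1. The haploid values spanned a wide range but all lay above R1, with a log2 difference of 1.68 (SE 0.36, adjusted p = 0.000748). Its near-copy miR-466a-3p had similar values (1.65, SE 0.36, adjusted p = 0.000833); whether the rows share reads was not tested. The other called 3p arms that were higher were miR-466m-3p (26.6 to 60.0 normalised CPM in the haploid libraries, 5.09 and 6.01 in R1, log2 2.82) and miR-466d-3p (40.6 to 112 against 25.7 and 20.3, log2 1.61). miR-466o-3p, at 0.20 to 1.95 normalised CPM in the haploid libraries and 0.50 and 0.79 in R1, was not called (log2 0.84, adjusted p = 0.399).

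miR-466n-3p went the other way at very low counts. It had 10 counts over the 7 haploid libraries and 37 over the 2 R1 libraries. Both A129-17 libraries and A129-6 replicate 3 were at 0, and R1 stood at 1.62 and 2.36 normalised CPM. The ratio of pooled normalised counts was 9.11 times higher in R1, with a 95% Poisson interval of 4.44 to 20.5 that covers counting error only. The test gave a log2 difference of -4.16 (SE 1.02, adjusted p = 0.00231), a fitted value that depends on the small prior count. The row passed the filter only through R1, where it was high, so this call is a description. Without R1 replicate 2 it was not called (adjusted p = 0.0522). Its partner arm, miR-466n-5p, which shares its counts with miR-466d-5p, was higher in the haploid lines.

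**Figure D2:**
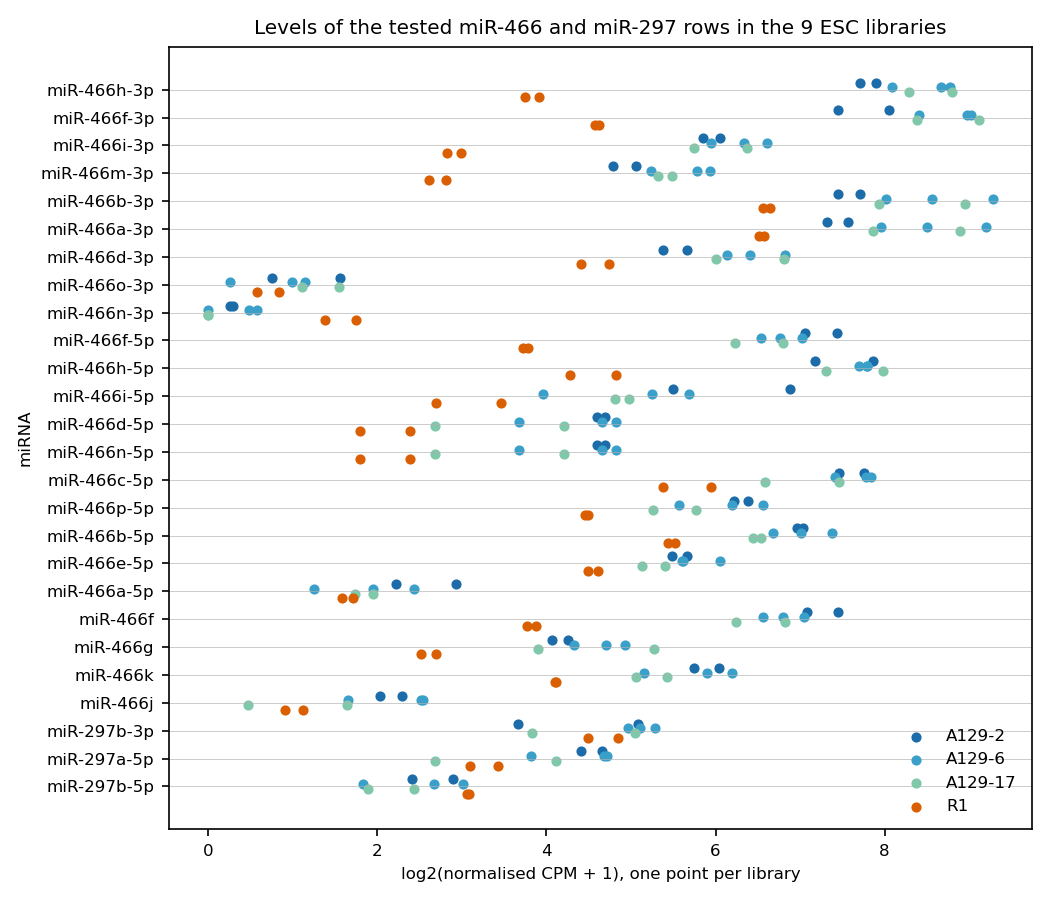
Levels of the 26 tested members in the 9 ESC libraries as log2(normalised CPM + 1) (x axis), 1 point per library, ordered by family and arm and then by difference. The R1 points of miR-466h-3p, at 14.0 and 12.4 CPM, lie far left of its haploid points at 209 to 443 CPM, while those of miR-297b-3p lie among the haploid points.

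Of the 10 tested 5p arms of miR-466, 9 were higher in the haploid lines and 1, miR-466a-5p, was not called (log2 0.66, adjusted p = 0.332). miR-466h-5p, from the hairpin of miR-466h-3p, had 143.1 and 232 normalised CPM (A129-2), 221, 207 and 221 (A129-6), 251 and 157 (A129-17), and 27.3 and 18.4 in R1. Its haploid libraries ranged from 143.1 to 251, and both R1 libraries lay below all of them (log2 3.15, SE 0.35, adjusted p = 1.11e-06). miR-466f-5p averaged 152 ± 28.3 (SD, n = 2) for A129-2, 110 ± 18.7 (SD, n = 3) for A129-6, 92.3 ± 25.8 (SD, n = 2) for A129-17 and 12.4 ± 0.371 (SD, n = 2) for R1, and its lowest haploid library stood at 74.0. The groups were again apart, with a log2 difference of 3.21 (SE 0.34, adjusted p = 7.2e-07).

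The 2 abundant 5p arms with smaller differences were miR-466c-5p and miR-466b-5p. miR-466c-5p had 174 and 215 normalised CPM (A129-2), 219, 228 and 169 (A129-6), 174 and 94.8 (A129-17), and 60.8 and 40.7 in R1 (log2 1.79, SE 0.32, adjusted p = 0.000168). miR-466b-5p had 124 and 130 (A129-2), 128, 166 and 101 (A129-6), 92.1 and 85.7 (A129-17), and 44.7 and 42.4 in R1 (1.39, SE 0.29, adjusted p = 0.000554). For both, the lowest haploid value was that of A129-17 replicate 2 and still lay above R1. miR-466i-5p had its highest level, 117 normalised CPM, in A129-2 replicate 1 and its lowest, 14.5, in A129-6 replicate 3, against 5.47 and 10.0 in R1 (log2 2.46, SE 0.53, adjusted p = 0.000767). The remaining called 5p arms were miR-466d-5p/miR-466n-5p (log2 2.43), miR-466p-5p (1.57) and miR-466e-5p (1.02, adjusted p = 0.00836). miR-466e-5p was not called without R1 replicate 1 (adjusted p = 0.0915) or R1 replicate 2 (0.131), or with total-count scaling (0.0814).

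Among the 4 tested miR-466 rows named without an arm, 3 were higher. miR-466f had nearly the same counts as miR-466f-5p and a log2 difference of 3.15 (SE 0.34, adjusted p = 8.84e-07). miR-466g had 18.2 and 15.7 normalised CPM (A129-2), 19.0, 25.1 and 29.6 (A129-6), 37.7 and 14.0 (A129-17), and 5.47 and 4.73 in R1 (2.11, SE 0.45, adjusted p = 0.000641). miR-466k is the UG-repeat strand whose only precursor by name lies on chromosome 3. It had 52.7 and 64.9 (A129-2), 58.9, 72.2 and 34.7 (A129-6), 41.9 and 32.3 (A129-17), and 16.2 in each R1 library. No haploid library of these rows reached R1. For miR-466k the log2 difference was 1.61 (SE 0.36, adjusted p = 0.000941), and 3.71 with an offset for GC content. miR-466j was low everywhere, at 0.39 to 4.82 normalised CPM in the haploid libraries and 0.87 and 1.18 in R1. It was not called (1.31, SE 0.72, adjusted p = 0.116), but was with the GC offset (2.73, adjusted p = 0.00522) and in the fit to all 12 libraries (2.13, adjusted p = 0.0228).

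None of the miR-297 rows was called in the comparison of haploid lines and R1, and 1 of them, miR-297a-5p, was called under some alternatives. miR-297b-3p had 11.7 and 32.9 normalised CPM (A129-2), 33.5, 30.1 and 37.8 (A129-6), 32.0 and 13.2 (A129-17), and 27.8 and 21.6 in R1. The R1 values lay inside the haploid range (log2 0.06, SE 0.41, adjusted p = 0.902). miR-297b-5p, from the same hairpin, had 4.30 and 6.42 (A129-2), 5.34, 7.10 and 2.55 (A129-6), 4.41 and 2.72 (A129-17), and 7.33 and 7.48 in R1. All haploid values lay below R1, some only slightly, and the difference did not pass (log2 -0.69, SE 0.46, adjusted p = 0.193). miR-297a-5p had 20.3 and 24.3 (A129-2), 24.7, 25.3 and 13.1 (A129-6), 16.3 and 5.44 (A129-17), and 7.58 and 9.75 in R1. All but 1 haploid library, A129-17 replicate 2, lay above R1. Its log2 difference of 0.99 (SE 0.44) had an adjusted p of 0.057. It was called as higher in 7 of 19 alternatives: with upper-quartile scaling (1.29, adjusted p = 0.0159), the stricter filter (1.34, adjusted p = 0.0139), the replicate block (1.05, adjusted p = 0.0341), all 12 libraries fitted together (1.84, adjusted p = 0.00299), without A129-17 replicate 2 (1.12, adjusted p = 0.018), A129-6 replicate 3 (1.08, adjusted p = 0.0238), and the 2 libraries of lowest TMM factor (0.69, adjusted p = 0.0499). miR-297c-5p held 3 counts in all.

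**Figure D3:**
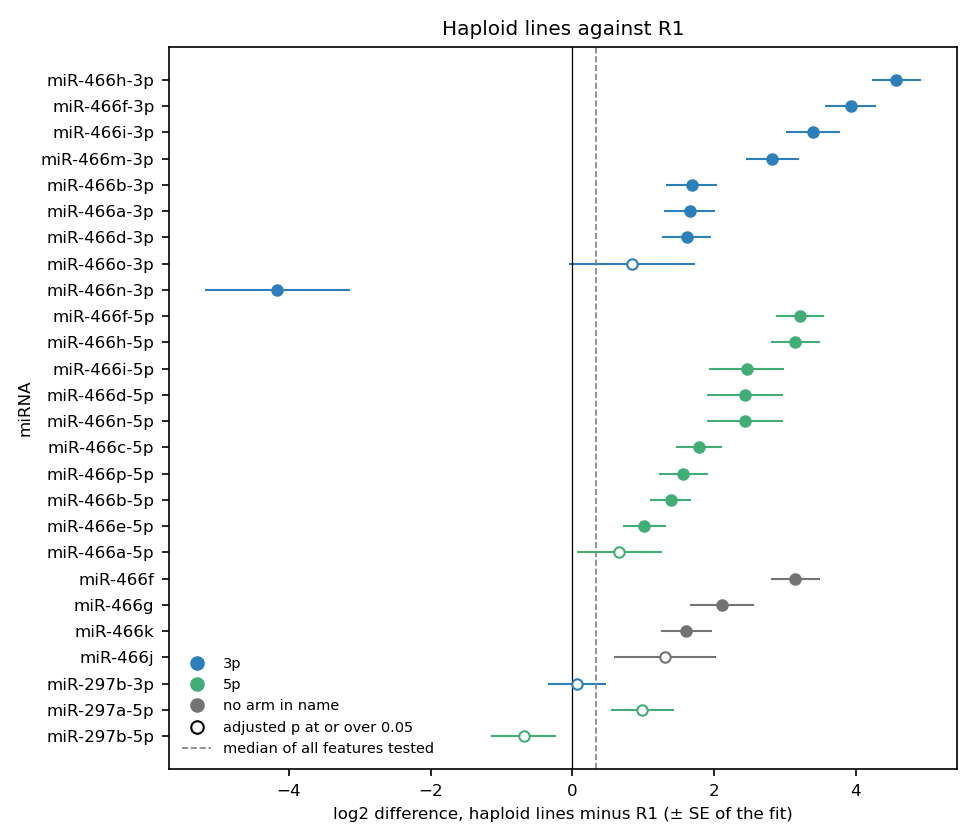
Log2 difference of haploid lines minus R1 (x axis) with the SE of the fit for the 26 tested members, coloured by arm, with open points where the adjusted p was at or over 0.05. The median of all features tested, 0.33, is dashed; miR-466h-3p stands at 4.57, miR-466n-3p at -4.16 and the 3 miR-297 rows between -0.69 and 0.99.

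Along the intron, members were not uniform. The array was divided into 3 stretches, with bounds chosen after the values were seen, as a description. In the first, 96.2 to 101.5 kb from the Sfmbt2 start, all 4 rows (miR-466m-3p and the 3 miR-466f rows) were higher, with log2 differences of 2.82 to 3.93. The miR-466f rows also bear the name of the copy on chromosome 13, and miR-466f and miR-466f-5p had nearly the same counts. In the middle stretch, 102.03 to 137 kb, 6 of 8 rows were higher, by 1.02 to 1.79, and the rows not called (miR-466a-5p and miR-466o-3p) stood at 0.66 and 0.84. The last stretch, 139 to 146 kb, held both extremes, miR-466h-3p at 4.57 and, at very low counts, miR-466n-3p at -4.16. Of its 9 tested rows 6 were higher and 1 lower. miR-297a-5p, whose precursors span the array and include the copy on chromosome 7, stood at 0.99. The rows with precursors only outside Sfmbt2 had values in the same range as rows with precursors inside it. Of the 4 tested, 3 were higher, at 1.61 to 3.40, beside miR-466j at 1.31.

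**Figure D4:**
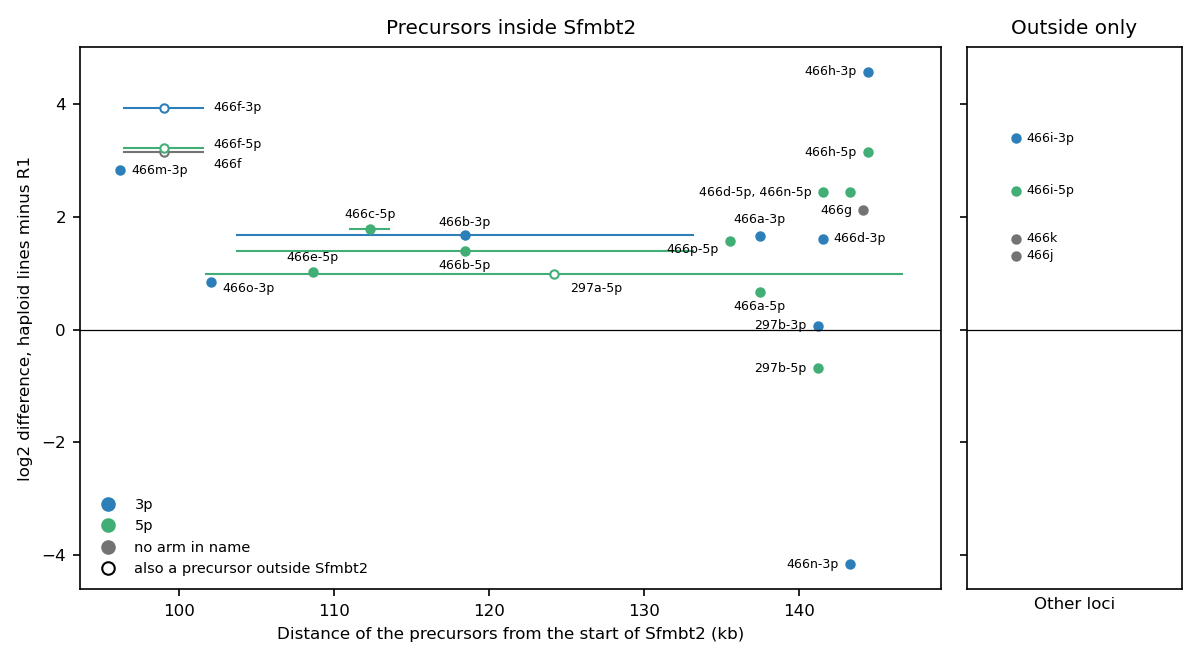
Log2 difference of haploid lines minus R1 (y axis) against the distance of a row's precursors from the start of Sfmbt2 in kb (x axis), with a bar where 1 name has several precursors and open points where a precursor outside Sfmbt2 also bears the name. Rows with precursors only at other loci are in the right panel, at 1.31 to 3.40. The miR-466f rows at the left of the array stand at 3.15 to 3.93.

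The balance of the 3p to the 5p row of a name compares rows within a library and so needs no scaling between libraries. A name can stand for several hairpins: miR-466b has 8 precursors and miR-466f has 4, 1 of them outside Sfmbt2. For miR-466h the 3p arm made up 62.4% and 47.4% of arm counts in A129-2, 66.3%, 56.6% and 64.6% (A129-6), and 63.9% and 66.6% (A129-17). In R1 it made up 33.9% (95% exact Clopper-Pearson interval 28.9% to 39.3%) and 40.3% (34.8% to 45.9%). The 3p arm of miR-466h was the larger in all haploid libraries except A129-2 replicate 2 and the smaller in both R1 libraries, and the groups did not overlap. Among the other names compared, miR-466n also separated the groups, at low counts and against a 5p row that equals miR-466d-5p. Its 3p arm held 0% to 1.79% of arm counts in the haploid libraries and 27.7% and 49.0% in R1. Its 3p share was thus higher in R1, and that of miR-466h lower. For miR-466a, miR-466b, miR-466d, miR-466f, miR-466i and miR-297b the haploid and R1 ranges overlapped. The 3p share of miR-466f was 50.3% to 84.9% in the haploid libraries and 66.0% and 64.2% in R1, and that of miR-466b 58.3% to 85.9% against 68.9% and 68.7%. miR-466i ran from 32.6% to 80.7% against 56.0% and 37.8%. miR-466a was almost wholly 3p in every library, at 96.0% to 99.8% in the haploid lines and 97.9% and 97.6% in R1. Its 3p row is the near-copy of miR-466b-3p, so its share may hold reads of that row, which was not tested.

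Over the whole miR-466 family the 3p share was 49.1% and 52.0% (A129-2), 68.3%, 56.8% and 76.7% (A129-6), 73.8% and 70.6% (A129-17), and 56.9% and 59.3% in R1. Both A129-2 libraries were below R1 and both A129-17 libraries above it. The highest 2 shares were in A129-6 replicate 3 and A129-17 replicate 1, the 2 libraries with the lowest TMM scaling factors of the 9 (0.701 and 0.758); the part of library composition in this was not tested. The spread between replicates exceeded counting error: in A129-6 the 95% intervals ran from 67.7% to 68.9% in replicate 1 and from 56.0% to 57.5% in replicate 2.

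**Figure D5:**
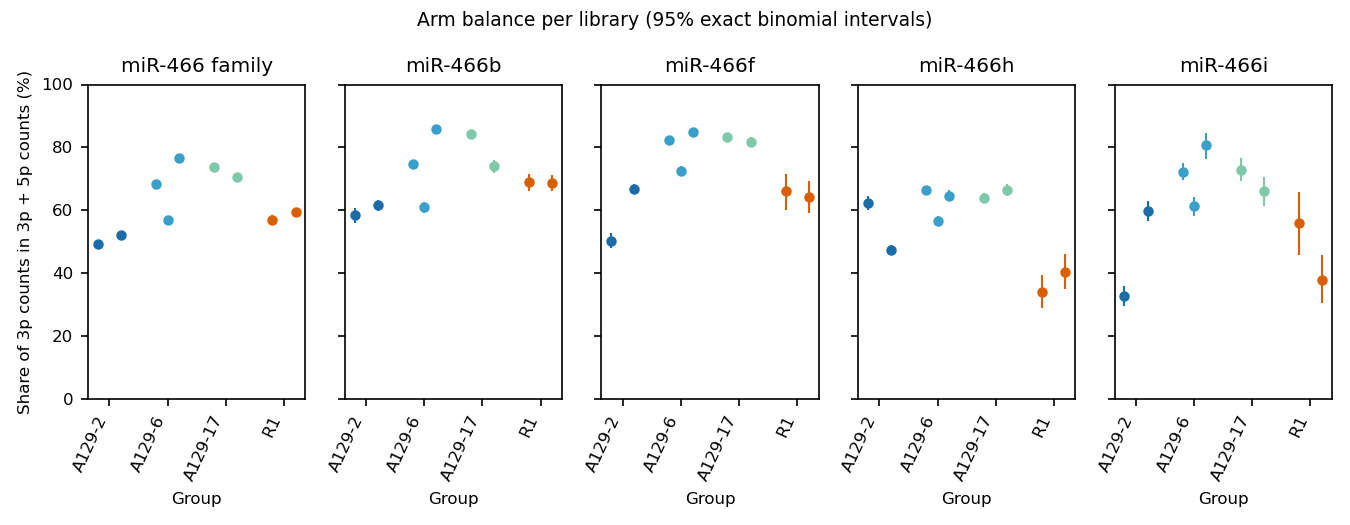
Share of 3p counts in 3p plus 5p counts in % (y axis) for the miR-466 family and 4 of its names by group (x axis), 1 point per ESC library with its 95% exact binomial interval. For miR-466h both R1 points, 33.9% and 40.3%, lie below all haploid points, the lowest of which is 47.4%; in the other panels R1 lies within the haploid range.

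Between the 3 haploid lines, no member passed the F-test over lines (0 of 26, against 3.83% of all features). DESeq2 also called 0, against 11.9% of all features. At an unadjusted p under 0.05 there were 5 members (miR-466a-3p, miR-466b-3p, miR-466d-3p, miR-466f-3p and miR-466i-5p), or 19.2% of those tested, against 23.0% of all features. The 4 3p arms among them had fitted log2 differences of 0.97 to 1.20 for A129-6 minus A129-2, and miR-466i-5p one of -1.23. A miss of the threshold does not show that the lines were alike. Without A129-6 replicate 3 and A129-17 replicate 1, a choice made after the data were seen, 3 of 26 rows were called, miR-297a-5p and the unit miR-466d-5p/miR-466n-5p, against 10.7% of all features. A129-17 then had 1 library, taken to vary like the other groups.

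In the comparison with round spermatids the families divided into members that were still counted in RS and members that were at or near 0 there. The raw counts of RS, in replicates 1, 2 and 3, were 44, 49 and 13 for miR-466b-3p, 45, 47 and 12 for miR-466a-3p and 32, 28 and 14 for miR-466d-3p. Each of these 3 rows made up 13.5% to 23.6% of the member counts of an RS library. miR-297b-3p had 19, 18 and 4 counts and miR-466i-5p 16, 20 and 11. By contrast, miR-466h-3p had 0, 1 and 0, miR-466f 0, 0 and 2, miR-466k 1, 0 and 1, and miR-297a-5p 0, 0 and 1. miR-297b-5p, miR-466a-5p, miR-466o-3p and miR-466l-3p had 0 in every RS library. A floor of 3 counts over the RS group is 5.30 CPM of total counts, and their haploid levels were under it. These were 4.86 (miR-297b-5p) and 3.39 CPM (miR-466a-5p) pooled, and 1.28 (miR-466o-3p) and 0.27 CPM (miR-466l-3p) as means of the lines. At this depth their 0 counts do not by themselves show lower levels in RS.

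Of the 25 members tested, 21 were higher in the haploid lines than in RS and 1, miR-466n-3p, was lower, by edgeR over all 12 libraries. Of all 806 features, 44.5% were higher and 20.8% lower, and 65.4% changed. The median log2 difference of the members was 3.64 and that of all features 2.79, which was 1.29 with total counts and 1.43 with upper-quartile scaling; changes against RS are thus to be read relative to that shift. Of all called features, 68.1% were higher, against 46.1% with total-count and 48.6% with upper-quartile scaling, and under either of these 13 members were higher. The 8 rows lost under both were miR-297b-5p, miR-466a-3p, miR-466a-5p, miR-466b-3p, miR-466d-3p, miR-466d-5p, miR-466n-5p and miR-466e-5p. In 18 members every haploid library lay above every RS library, against 47.9% of all features, and in 0 below, against 16.3%. The filter needed 2 libraries past its cutoff. Of the 21 higher rows, 7 (miR-297a-5p, miR-297b-5p, miR-466a-5p, miR-466f, miR-466f-5p, miR-466h-3p and miR-466m-3p) had fewer than 2 such RS libraries and so entered only through ESC, where they were high, and miR-466n-3p had 0 such haploid libraries. These counts are therefore a description. The 5 rows not tested were miR-297c-5p, miR-466l-3p, miR-466l-5p, miR-466o-3p and miR-466q.

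With the scaling of all 12 libraries, miR-466f-3p stood at 234 to 838 normalised CPM in the haploid libraries (median 517) and at 19.5, 4.91 and 5.47 in RS, a log2 difference of 5.67 (SE 0.50, adjusted p = 1.03e-09). miR-466h-5p stood at 192 to 379 against 13.0, 4.91 and 8.21 (5.09, SE 0.47, adjusted p = 2.28e-09). In both, no haploid library came near RS. Where RS had 1 to 3 counts in all, the ratio of pooled normalised counts is given with its 95% Poisson interval: 597 (107 to 23587) for miR-466h-3p, 110 (30.5 to 911) for miR-466f, 49.5 (13.7 to 409) for miR-466k, and 36.3 (6.5 to 1436) for miR-297a-5p. These ratios depend on the TMM scaling, which the intervals do not cover. Over the alternatives the fitted log2 difference fell as low as 7.42 for miR-466h-3p (9.12 in the main fit) and 5.02 for miR-466f (6.71). For miR-466k it fell to 3.81 (5.48) and for miR-297a-5p to 3.24 (4.93), and all kept their calls. For miR-297b-5p and miR-466a-5p, with 0 counts in RS, a floor of 3 counts over the RS group on the TMM-scaled sizes gave at least 3.07-fold and at least 2.14-fold higher levels. On total counts no such bound holds, since the haploid levels of 4.86 and 3.39 CPM are under the floor of 5.30 CPM. The calls of both rows were lost with upper-quartile scaling, at adjusted p = 0.0525 and 0.103, and with total counts, at 0.0783 and 0.137.

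The members abundant in RS differed less. miR-466b-3p was higher by 5.45-fold in the haploid lines, a log2 difference of 2.45 (SE 0.42, adjusted p = 1.88e-05). This call was lost on upper-quartile scaling (0.89, adjusted p = 0.0547) and on total counts (0.62, adjusted p = 0.199). miR-466c-5p was higher by 9.61-fold (3.26, SE 0.41, adjusted p = 2.46e-07). miR-466d-3p stood at 63.4 to 168 normalised CPM in the haploid libraries and 69.4, 68.7 and 38.3 in RS, which overlap (0.82, SE 0.34, adjusted p = 0.0406), and it kept its call in only 4 of 21 alternatives. It was not called with RLE scaling (adjusted p = 0.391), DESeq2 (0.401) or the stricter filter (0.731), and its sign turned with upper-quartile scaling (-0.74, adjusted p = 0.0579) and total-count scaling (-0.94, adjusted p = 0.0378), the last of these a called decrease. miR-466i-5p (0.73, adjusted p = 0.144) and miR-297b-3p (0.25, adjusted p = 0.628) were not called. With upper-quartile and total-count scaling, miR-297b-3p was called lower in the haploid lines (-1.33, adjusted p = 0.0114, and -1.57, adjusted p = 0.00507), and miR-466i-5p turned negative without a call (-0.83 and -0.93). miR-466n-3p, with 10 haploid and 3 RS counts, had a pooled ratio of 7.30 in favour of RS (95% Poisson interval 1.29 to 28.4). That call was lost when A129-2 replicate 1 (adjusted p = 0.0578), R1 replicate 2 (0.0511), RS replicate 1 (0.0604) or RS replicate 2 (0.253) was left out.

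Fewer members were called between R1 and RS than between the haploid lines and RS. Of 25 members tested, 7 were higher in R1 and 2 lower, where 33.6% of all features were higher, 19.4% lower and 53.0% changed. The median log2 difference was 0.79 over the members and 2.04 over all features. The members thus lay below the shift of all features here, and above it for the haploid lines against RS (3.64 and 2.79). In 11 members both R1 libraries lay above every RS library and in 2 below, against 55.5% and 20.8% of all features. The 2 lower in R1 were miR-466d-3p (20.7 and 17.1 normalised CPM against 69.4, 68.7 and 38.3 in RS, log2 -1.64, SE 0.45, adjusted p = 0.00305) and miR-466i-5p (4.39 and 8.48 against 34.7, 49.1 and 30.1, log2 -2.55, SE 0.58, adjusted p = 0.000692). For both, the groups did not overlap. The call of miR-466d-3p was lost when any of 7 single libraries was left out (adjusted p up to 0.42, without RS replicate 2) and that of miR-466i-5p without R1 replicate 1 (0.127) or RS replicate 2 (0.0973). The 7 higher were miR-297a-5p, miR-297b-5p, miR-466f, miR-466f-5p, miR-466h-3p, miR-466k and miR-466p-5p. All but miR-466k and miR-466p-5p, 5 rows, had fewer than 2 RS libraries past the filter and entered it only through ESC. Of the 7, 6 had at most 2 counts in RS, and miR-466p-5p had 6 (log2 1.85, SE 0.61, adjusted p = 0.0124). On the TMM-scaled sizes the pooled ratio was 13.4 (95% Poisson interval 2.38 to 531) for miR-466h-3p and 8.26 (2.27 to 68.5) for miR-466k, and miR-297b-5p was at least 2.52-fold higher. The most abundant row of both groups, miR-466b-3p, had a log2 difference of -0.09 (SE 0.48, adjusted p = 0.889). These calls rest on 155232 to 243714 counts per RS library. Leaving out single libraries moved the number of higher members between 6 and 15. It was 11 without A129-2 replicate 2, A129-17 replicate 1, A129-17 replicate 2 or RS replicate 3, 12 without R1 replicate 2, 13 without A129-6 replicate 1 and 15 without RS replicate 2. Calls over all features moved as well, from 271 of 806 higher in the main fit. Without RS replicate 1, 2 or 3 they were 247 of 794, 338 of 792 and 313 of 794. Without A129-6 replicate 1, 2 or 3 they were 332 of 791, 266 of 799 and 273 of 795. The 3 comparisons share libraries: R1 and the haploid lines are each in 2 of them, and so is RS.

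The make-up of the families differed accordingly among the 3 kinds of cell. In RS, miR-466a-3p, miR-466b-3p and miR-466d-3p led. In R1, miR-466a-3p and miR-466b-3p made up 17.0% to 18.5% of the member counts each, and miR-466f-3p and miR-466h-3p 2.5% to 4.5% each. In the haploid lines miR-466f-3p (8.4% to 17.1%) and miR-466h-3p (9.4% to 16.0%) stood beside miR-466b-3p (8.4% to 18.9%) among the leading rows.

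The other 2 families of the intron, miR-467 and miR-669, have 14 of 17 and 29 of 30 precursors there. Of their 28 tested rows, 15 were higher and 1 lower in the haploid lines than in R1, where 35.3% of all features went each way. Against RS, 17 were higher in the haploid lines and 1 lower, where 44.5% and 20.8% of all features were. For R1 against RS, where these shares were 33.6% and 19.4%, 3 of these rows were higher and 1 lower. Their summed level was 6248 to 12757 CPM of total counts in the haploid libraries, which overlapped the R1 values of 6630 and 6899 and the RS range of 5573 to 14940, unlike that of miR-466. Among their most abundant rows, miR-467a-5p/miR-467b-5p averaged 2424 CPM in R1 and 1170 to 2045 CPM in the 3 haploid lines. By the same edgeR test it was not called (log2 -0.44, SE 0.22, adjusted p = 0.0823). miR-669c-5p averaged 296.9 CPM in R1 and 1442 to 2344 CPM in the lines, and was called higher (log2 2.76, SE 0.30, adjusted p = 1.04e-06).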

How the data were processed

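The deposited file is a table of raw read counts per microRNA, which the authors had not normalised. Per the labels' protocols, adapter-ligated, PCR-amplified, gel-selected small RNA was read single-end. Bowtie 0.12.9 and DESeq2 are named per the submitters' processing notes; genome build, miRBase release and the handling of multiple matches are not given in the sources used here. All columns matched a sample by name.

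Counts were tested in R 4.3.3 with edgeR 4.0.16 (filterByExpr by group, minimum count 10, minimum total 15; TMM; quasi-likelihood F-test; Benjamini-Hochberg adjustment over all features tested; threshold 0.05; two-sided). The 9 ESC libraries were fitted for comparisons among ESC and all 12 for those with RS; haploid lines weigh equally, and their SD is over the 3 line means. Normalised CPM use TMM-scaled library sizes. The code was tested on simulated data. DESeq2 1.42.0, other scalings and filters, a replicate block, a GC offset and left-out libraries were alternatives. Intervals (95%) and floors (3 counts) cover counting error only, as PCR reads without molecular identifiers are not independent. Precursors were located in GENCODE M21 (GRCm38).

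Members and lists were chosen with earlier results of these data known. Named in full were, per family and arm, the 4 units highest in mean CPM over groups, the 4 largest called increases and decreases of at least 10 CPM, and any unit called against the majority; other members appear in ranges or counts, or where a call or a count turned on them, which was decided after their values were seen.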

Additional observations from a re-analysis of the deposited data

How the results depend on the processing

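Against R1, the number of members higher in the haploid lines was 18 to 21 over 19 alternatives, against 19. The number lower was 0 with the stricter filter, which left 22 members and which miR-466n-3p did not pass, and 0 to 1 with single libraries left out. Between lines, 1 of 30 members (miR-466i-5p) was called with no filter, against 5.48% of all features, 3 of 26 without the 2 libraries of lowest TMM factor, against 10.7%, and 0 with any single library left out. Against RS, the number higher in the haploid lines was 13 with upper-quartile and 13 with total-count scaling and 20 to 21 with single libraries left out. The number lower was 2, 3, 0 and 0 with upper-quartile scaling, total-count scaling, the stricter filter and only the groups compared, and 0 to 1 with single libraries left out. With the stricter filter and with only the groups compared, miR-466n-3p did not pass the filter and was not tested. For R1 against RS, the number higher was 3 with upper-quartile and 3 with total-count scaling, 14 with scaling without the miR-290 cluster, 13 with no filter, 0 with only the groups compared, where 7 members passed the filter in place of 25, and 6 to 15 with single libraries left out; the number lower was 4 with upper-quartile scaling, 1 without the miR-290 cluster, 1 with no filter and 0 to 2 with single libraries left out. Otherwise the cause was not tested.

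Values of single members that changed sign were few. Against R1, miR-297b-3p went from 0.06 to -0.19 (RLE scaling), -0.12 (total counts), -0.0482 (without the miR-290 cluster), -0.0144 (no filter), -0.19 (DESeq2), -0.25 (without the 2 libraries of lowest TMM factor) and -0.31 to 0.24 with single libraries left out, and miR-297b-5p to 0.17 with all 12 libraries in the fit. Against RS, miR-297b-3p went to -0.25 (RLE), -1.33 (upper quartile), -1.57 (total counts), -0.46 (stricter filter), -0.26 (DESeq2) and -0.48 to 0.75 with single libraries left out; miR-466d-3p went to -0.74 and -0.94, and miR-466i-5p to -0.83 and -0.93, with upper-quartile and total-count scaling. Over all features, the share of higher calls among called features against R1 was 267 of 534, and 66.0% with all 12 libraries in the fit; for R1 against RS it was 63.5%, 49.6% with upper-quartile and 53.5% with total-count scaling. The median of all features against R1 moved from 0.33 to 0.08 (RLE), 0.64 (upper quartile) and 0.94 (12 libraries).

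Over 12 same-numbered ESC pairs, deviations from the group means correlated at -0.177 to 0.139. In a group of 2 libraries these deviations mirror each other, so the pairs are not independent. They cannot decide whether replicate numbers mark a shared batch. With the replicate block, 20 members (miR-297a-5p added) were higher in the haploid lines than in R1, 21 higher than in RS, and 6 higher in R1 than in RS; over all features, 72 in place of 29 were called between lines. The GC offset was void for the member counts, since 4 of 30 members (13.3%) have a sequence, and was run for single members only. Depth limits the comparisons with RS, where the floor of 3 counts is 12.3 to 19.3 CPM per library.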
